A study of Rattus norvegicus with 6 samples.

Results

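The genes described here encode the core of the renin-angiotensin system. They are Agt (angiotensinogen), Ace (angiotensin-converting enzyme), the angiotensin II receptor genes Agtr1a, Agtr1b and Agtr2, and Mas1 (the Mas receptor). Members were taken by name: a probe belonged to a gene when the RefSeq accession printed for it matched the gene's rat symbol, and the brightest probe stood for the gene. All 6 were on the array, out of 26773 features in all, of which 15437 are named genes and the rest are accessions without a symbol.

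Angiotensinogen is the precursor protein from which angiotensin I is cut. Angiotensin-converting enzyme, a peptidase of the endothelial surface, trims angiotensin I to angiotensin II, and the type 1 receptor passes that signal on through Gq proteins to vasoconstriction, aldosterone release and growth of heart muscle and fibroblasts. The type 2 receptor and Mas, which binds an angiotensin heptapeptide, are usually described as opposing it. Rats, like mice, carry 2 genes for the type 1 receptor, Agtr1a and Agtr1b, and drugs against the enzyme or that receptor are standard treatment after myocardial infarction.

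The data are 6 one-colour arrays, all of material from Sprague Dawley rats, 13 weeks old. Of the myocardial arrays, 1 came from a sham-operated rat (sham), 1 from a rat with myocardial infarction whose heart wall was injected with PBS (PBS), and 2 from infarcted myocardium injected with cultured stem cells of adipose origin (ADSCs, mesenchymal cells expanded from fat tissue) that carried 124I-HIB, a lipophilic iodine tracer (treated, replicates 1 and 3). The other arrays held cultured ADSCs, 1 array without the tracer and 1 with it, at 14 days of culture. The labels date the tissue to 21 days past a sham operation, also for the infarcted hearts. They do not say which region of the heart was sampled, nor whether the treated replicates are separate animals, so a p-value rests on the difference within this pair, and that may be technical. Infarcted myocardium given unlabelled ADSCs was not analysed here, so injected cells and tracer cannot be told apart in the treated arrays.

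All 6 cardiomyocyte markers were well above background on every myocardial array, and all 5 mesenchymal stem cell markers (Thy1, Nt5e, Eng, Cd44 and Itgb1) were on both cell arrays, where 4 of the 6 cardiomyocyte markers (all but Myh6 and Actn2) also passed, at a summed level of 1.74 and 1.77 against 1060 to 1750 in myocardium. Across the arrays, 64.4% to 69.4% of probes were well above background by the scanner's own test, and none of the spots was saturated. Precision is limited by the number of arrays, since only the treated group has more than 1. The PBS array stands apart from the other myocardial arrays by genes of the cardiac atria. The summed level of 5 atrial markers was 312 times the array's 75th percentile signal on PBS, against 7.70 on sham and 38.9 and 12.2 on the treated arrays, and all 5 were well above background on PBS only.

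The regions before the transcription starts of the receptor and enzyme genes are shown first, as a description. The type 1 receptor copies differ there and also in whether these arrays detected them, and a link between these was not tested. RefSeq promoter windows (assembly GRCr8, 250 bases before to 50 bases after the annotated start) matched 5 of the 6 genes, all but Agt. The stretches printed are the 250 bases before the start, 5′ to 3′ on the strand of the gene, with capitals for TATAAA (the core of the TATA box) or GGGCGG (the GC box bound by Sp1 family factors) on either strand. They lie at chr10:91409879-91410128 (plus strand) for Ace, chr17:34435433-34435682 (minus strand) for Agtr1a, chr2:104849263-104849512 (minus strand) for Agtr1b and chrX:116914070-116914319 (plus strand) for Agtr2.
Ace: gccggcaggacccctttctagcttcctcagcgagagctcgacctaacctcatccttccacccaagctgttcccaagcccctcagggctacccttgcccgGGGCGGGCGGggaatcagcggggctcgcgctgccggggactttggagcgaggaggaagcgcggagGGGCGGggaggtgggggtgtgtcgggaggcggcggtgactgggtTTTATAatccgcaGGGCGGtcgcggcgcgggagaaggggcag
Agtr1a: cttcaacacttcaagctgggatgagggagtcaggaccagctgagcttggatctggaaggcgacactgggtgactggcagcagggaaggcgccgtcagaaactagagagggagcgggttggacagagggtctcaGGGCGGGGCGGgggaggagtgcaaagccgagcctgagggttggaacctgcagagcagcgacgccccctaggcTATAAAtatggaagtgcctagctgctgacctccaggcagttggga
Agtr1b: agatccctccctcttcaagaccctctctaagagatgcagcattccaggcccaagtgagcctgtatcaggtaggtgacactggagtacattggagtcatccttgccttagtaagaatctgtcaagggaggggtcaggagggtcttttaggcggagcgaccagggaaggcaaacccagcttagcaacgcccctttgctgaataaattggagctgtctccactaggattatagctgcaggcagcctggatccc
Agtr2: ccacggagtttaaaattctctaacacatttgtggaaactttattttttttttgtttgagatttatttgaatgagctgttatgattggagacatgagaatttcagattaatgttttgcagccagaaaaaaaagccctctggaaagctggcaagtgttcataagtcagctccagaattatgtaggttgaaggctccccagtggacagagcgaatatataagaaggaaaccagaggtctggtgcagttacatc

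The Ace window of 300 bases was 72.3% G and C and held 34 CpG dinucleotides. It had GGGCGG at 4 places, the first pair overlapping, and TATAAA on the minus strand 42 bases before the start. The Agtr1a window was 60.7% G and C with 11 CpG dinucleotides, overlapping GGGCGG matches 117 and 112 bases before the start, and TATAAA 45 bases before it. The windows of Agtr1b (53.7% G and C), Agtr2 (40.3%) and Mas1 (54.3%) held no exact match to either motif and 3 CpG dinucleotides each. The search took these exact letters only, so a variant such as the tatataag in the printed Agtr2 stretch was not counted. For scale, GGGCGG was found in 33.1% of all 33469 promoter windows, in 61.3% of the 8042 windows of genes well above background on all 6 arrays and in 17.8% of the 2355 windows of genes well above background on none. TATAAA was found in 14.2%, 7.45% and 24.5% of the same sets, and the median G and C content was 51.7%, 60.7% and 45.7%. A match describes the letters and is not evidence of a bound site.

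Only Agt, Ace and Agtr1a gave a measurable signal. These 3 were well above background on all 6 arrays, as were 58.3% of features. The type 1 receptor copy Agtr1b, the type 2 receptor gene Agtr2 and Mas1 were not well above background on any spot of any array, as was true of 22.5% of features. Their processed signals lay between 3.12 and 11, and they are bounded from above by background only. No comparison was made for them. Agtr1a and Agtr1b are close in sequence, and whether the Agtr1a probe also takes up Agtr1b RNA was not tested; the probe of Agtr1b itself stayed at background on every array.

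Levels below are log2 processed signals relative to the 75th percentile of the same array, so that 0 means a signal equal to that percentile. Levels of different genes come from different probes and are not set against each other.

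Agt, the substrate, lay at -3.90 on sham, -2.89 on PBS, -3.74 and -3.44 on treated replicates 1 and 3, -6.07 on unlabelled cells and -6.03 on labelled cells. The processed signals behind these were 51.8, 151, 95.6, 97.4, 35.0 and 40.0. PBS was the highest of the 6 arrays. Both cell arrays were far below the myocardial ones on the relative scale, with signals near the background. The treated arrays lay between sham and PBS, and the 2 spots of the probe were furthest apart on treated replicate 1, at -3.93 and -3.54.

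Ace, the converting enzyme, was nearly level in the myocardium, at -1.25 on sham, -1.25 on PBS and -1.27 and -0.95 on the treated arrays. It lay at -1.40 on unlabelled cells and at -2.08 on labelled cells, the lowest of the 6. The gene's dimmer second probe, read from 1 spot an array, gave -3.47, -3.28, -3.24, -3.11, -3.39 and -4.42 in the same order, with labelled cells again lowest.

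Agtr1a, the main type 1 receptor gene of the rodent heart and vessels, was read from 10 spots an array. Its mean level was -2.97 on sham, -2.54 on PBS and -3.03 and -2.72 on the treated arrays. In culture it reached -0.21 without the tracer and -1.06 with it. The spots of sham ran from -3.30 to -2.78 and those of PBS from -2.92 to -2.23, so these arrays overlapped in single spots. The spots of unlabelled cells (-0.27 to -0.12) and of labelled cells (-1.31 to -0.91) overlapped neither each other nor any myocardial array. Spots of one array are repeat readings of one sample and carry no biological error.

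**Figure D1:**
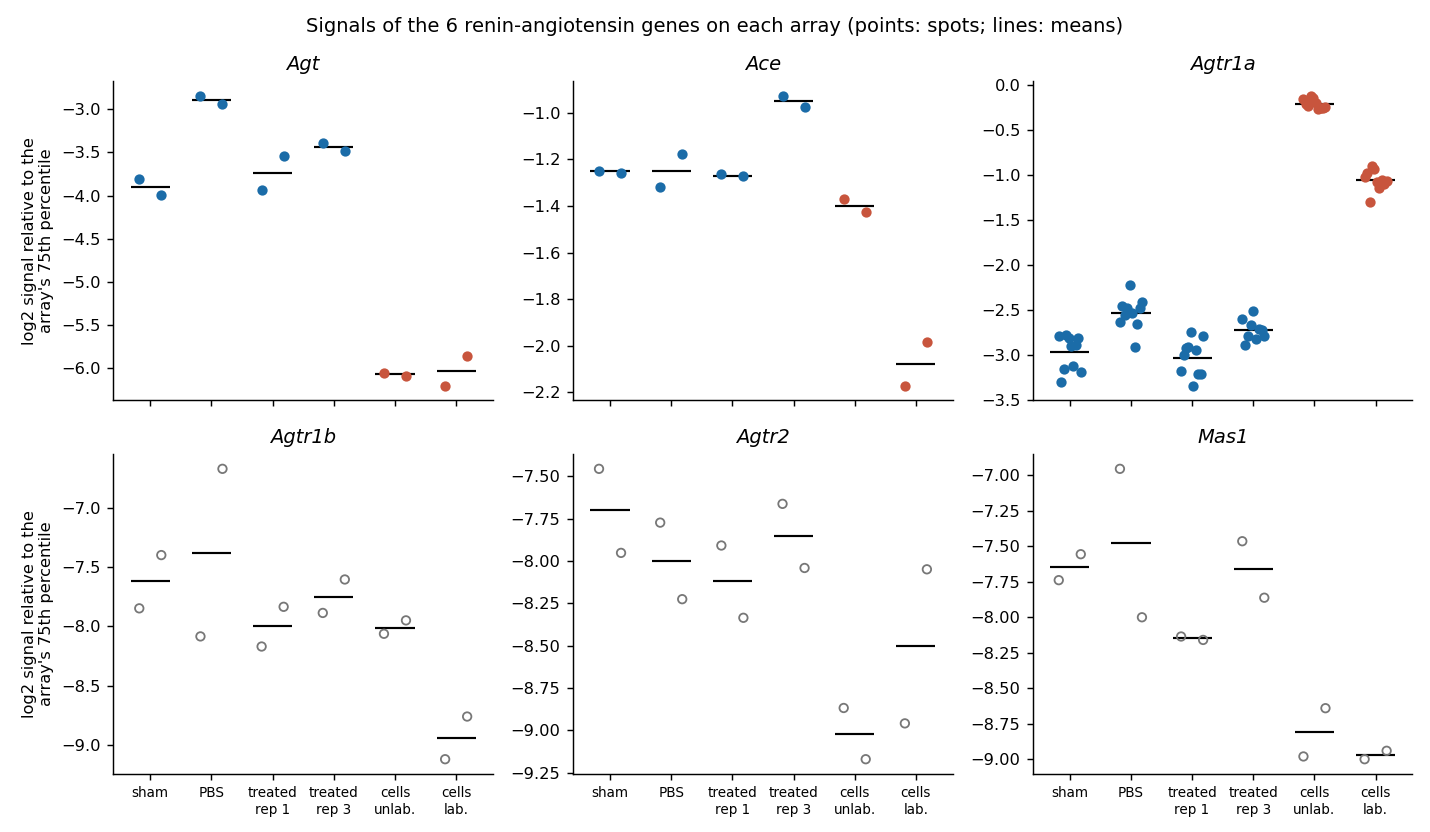
Log2 processed signal relative to the array's 75th percentile (y axis, a different range in each panel) of the 6 genes on the 6 arrays (x axis; unlab. and lab. are cells without and with the tracer). Points are spots, filled where well above background (blue myocardium, red cells) and open where not; lines are array means. Agt sits at -2.89 on PBS and near -6 in cells, Agtr1a at -0.21 and -1.06 in cells against -3.03 to -2.54 in myocardium, and the lower row holds open points only.

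The treated pair gave the only replicate error. Its SD was 0.21 for Agt, 0.22 for Ace and 0.22 for Agtr1a (n = 2 each). As a wider yardstick, the 95th percentile of the difference between the treated replicates was taken over features within 0.5 of the same brightness; it was 0.78 for Agt, 0.54 for Ace and 0.66 for Agtr1a at their treated levels. In the order of Agt levels, the step from sham down to labelled cells was 2.13 and exceeded that yardstick (0.86 there). The steps from PBS to treated replicate 3 (0.55), from there to treated replicate 1 (0.30), from there to sham (0.16) and between the cell arrays (0.04) did not. In the order of Agtr1a levels, the steps from unlabelled to labelled cells (0.85) and from labelled cells to PBS (1.48) exceeded it, and those among the 4 myocardial arrays (0.05 to 0.25) did not. For Ace only the step between the cell arrays (0.68 against 0.56) did. The yardstick comes from myocardial arrays and does not measure the spread between cultures or between cells and tissue.

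The first comparison set infarcted myocardium injected with PBS against sham myocardium. Agt was 2.01-fold higher on PBS, a log2 difference of 1.01, Agtr1a was higher by 0.44 and Ace differed by 0.00. Agt was thus the 1 member of the 3 measured that was 2-fold apart, where 3.68% of 16944 features were (2.24% higher and 1.44% lower), and 2.21% of features had a difference as high as that of Agt. It exceeded the yardstick of the treated pair at that brightness (0.74), whereas the difference of Agtr1a did not reach it (0.64), and 9.99% of features were as high. Each group has 1 array. In the limma fit of the 4 myocardial arrays, which takes the spread of the treated pair for the single arrays as well and was added after the data were seen, the adjusted p was 0.34 for Agt (unadjusted p = 0.0215), 0.56 for Agtr1a and 0.995 for Ace. That fit called 0.0% of 19230 features at an adjusted p of 0.05, and 12.2% had an unadjusted p below it. The 2-fold mark was passed narrowly: Agt differed by 0.98 after quantile normalization, 0.96 in the authors' deposited values, 0.94 with median scaling and 0.49 with normexp background correction.

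Markers of other cell types moved with Agt on the PBS array. All 5 of 5 atrial markers were well above background there, against 2 to 3 of 5 on the other myocardial arrays; Myl7, the atrial myosin light chain, lay at 7.60 on PBS against -0.47 on sham and 2.02 and 0.83 on the treated arrays. All 3 mesothelial markers on the array were well above background on PBS, with a summed level of 3.22 against 0.384 to 0.443 on the other 3 arrays. Msln (mesothelin) lay at 0.94 against -6.85 to -6.03 and Upk1b at -0.10 against -7.14 to -6.33, while Wt1 was nearly level, at -1.45 on PBS and between -1.48 and -1.27 elsewhere. All 5 neuronal and Schwann markers were above background on PBS, with a summed level of 1.01 against 0.293 to 0.542. Adipoq, the adipokine that defines fat cells, was well above background on PBS only, at -2.66, although the summed level of the adipocyte list, most of it Fabp4, was 6.77 against 6.06 to 8.23, and its other members Cidec and Lep were not well above background on any myocardial array. The part of these cell types in the Agt value was not tested. In bulk tissue, fewer cells of a type and less RNA per cell cannot be told apart.

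**Figure D2:**
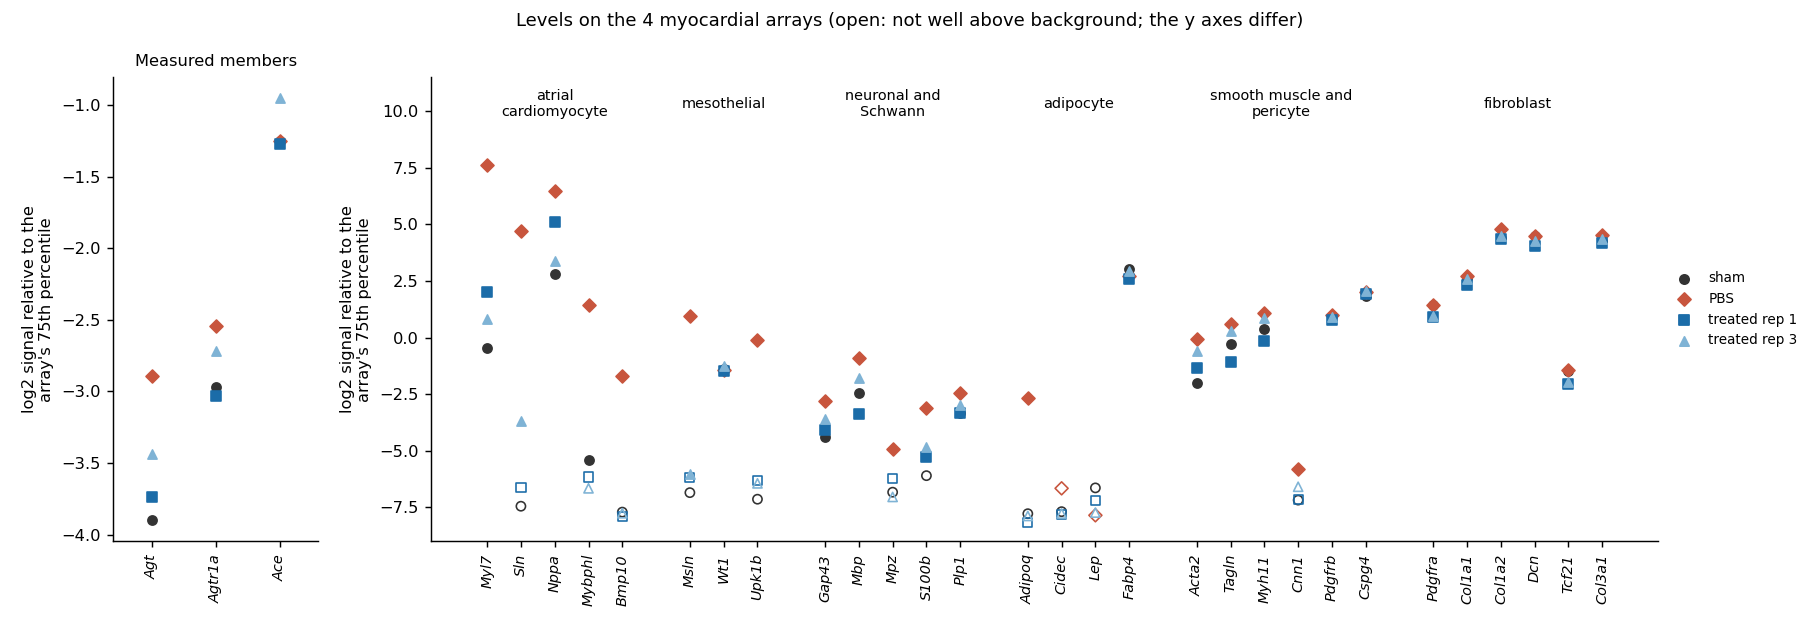
Log2 processed signal relative to the array's 75th percentile (y axes, which differ) on the 4 myocardial arrays for the measured members (left) and every marker on the array from 6 cell type lists (right, genes on the x axis). Symbols are arrays, open where a marker was not well above background. Agt and Agtr1a are highest on PBS, as are all 5 atrial markers and Adipoq, while Wt1, Fabp4, Pdgfrb and Cspg4 lie close together on the 4 arrays.

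Treated infarcted myocardium was next set against PBS. Agt was lower on both treated arrays, by 0.85 and 0.55, a mean of -0.70 ± 0.21 (SD, n = 2; limma adjusted p = 0.489 by Benjamini-Hochberg, unadjusted p = 0.0398). Ace differed by 0.14 ± 0.22 (SD, n = 2; limma adjusted p = 0.879), with the treated arrays on either side of PBS. Agtr1a differed by -0.34 ± 0.22 (SD, n = 2; limma adjusted p = 0.714), lower on both. All 6 of 6 fibroblast markers were lower on both treated arrays too (median -0.35), as were 4 of 5 measured smooth muscle and pericyte markers (median -0.73) and all 4 measured nerve markers (median -1.36), where 34.2% of all features were; their part in the values of Agt and Agtr1a was not tested. None of the 3 was 2-fold apart on both treated arrays, where 1.25% of 17019 features were (0.429% higher and 0.823% lower). In the limma fit no feature of 19230 passed an adjusted p of 0.05 (0.0%), while 9.71% had an unadjusted p below that value, so the unadjusted p of Agt stands among many. A difference as low as that of Agt was found in 3.08% of features. The comparison shares the PBS array with the one before it, and PBS was the highest of the 4 myocardial arrays for 24.1% of features, Agt and Agtr1a among them.

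Against sham, which leaves the PBS array out, the treated myocardium differed by 0.31 ± 0.21 for Agt (SD, n = 2; limma adjusted p = 0.67), by 0.14 ± 0.22 for Ace (SD, n = 2; limma adjusted p = 0.835) and by 0.10 ± 0.22 for Agtr1a (SD, n = 2; limma adjusted p = 0.888). Agt was higher on both treated arrays, by 0.16 and 0.46, and the other members lay on either side of sham. None was 2-fold apart (0.979% of 16747 features were, 0.585% higher and 0.394% lower), and limma called 0.0% of features, with 9.59% below an unadjusted p of 0.05. With normexp background correction the differences of Agt and Agtr1a from sham turned to -0.03 and -0.05.

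In culture, the tracer-labelled cells were set against the unlabelled ones, a comparison named in the design of the series. Both the enzyme and the receptor were lower with the tracer: Ace by a log2 difference of -0.68 and Agtr1a by -0.85, with a 1.6-fold and a 1.8-fold higher signal in unlabelled cells. Agt differed by 0.04. No member was 2-fold apart, and 1.03% of 17908 features were (0.447% higher and 0.581% lower). Values as low were found in 1.12% of features for Agtr1a and in 2.64% for Ace. The dimmer second Ace probe, with 1 spot an array, differed by -1.03 and so lay just past 2-fold, which the brighter probe that stands for the gene did not. Over the alternatives in processing Agtr1a stayed between -0.85 and -0.80 and Ace between -0.86 and -0.62. Each condition has 1 array, so the spread between cultures is not known, and no test was run. Among markers of other cell types, the summed level of the endothelial list was 0.829 on unlabelled and 1.19 on labelled cells. That sum followed Kdr alone, since the other 3 endothelial markers measured were lower with the tracer (list median -0.08), and Tie1 was not well above background on either array. The smooth muscle and pericyte list gave 15.9 and 19.7; the part of such cells was not tested.

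**Figure D3:**
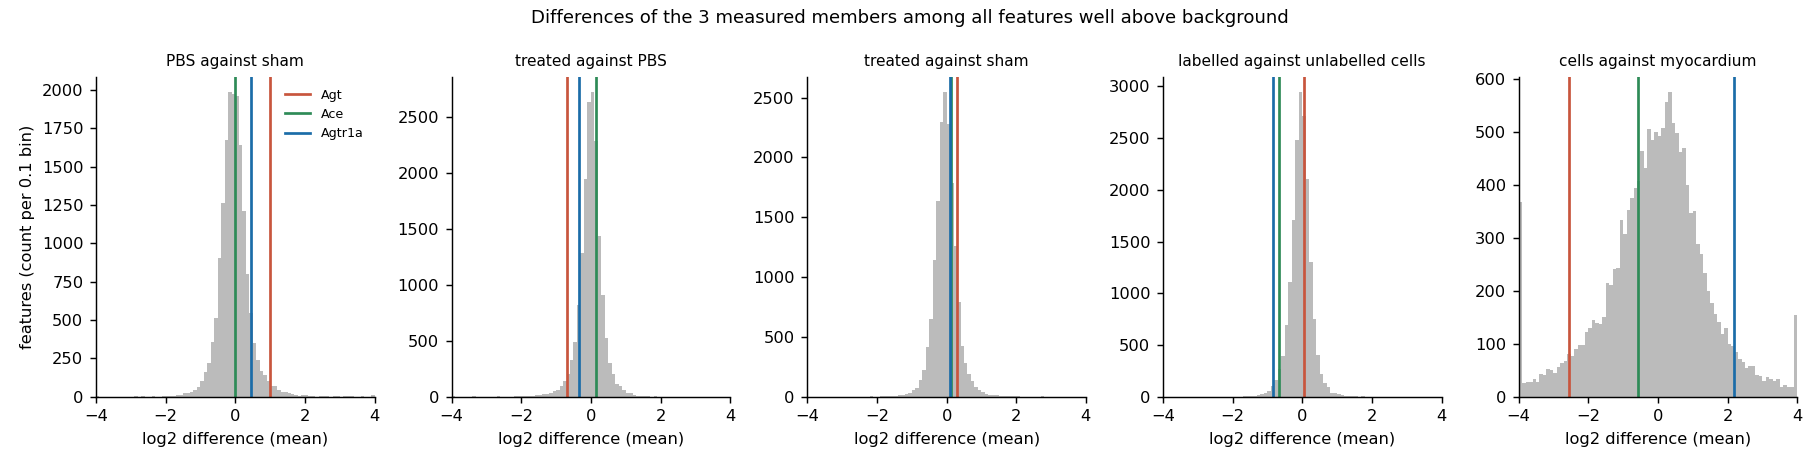
Log2 differences of Agt, Ace and Agtr1a (coloured lines) in the 5 comparisons over a histogram of all features that passed the background test on each array compared (grey, count per 0.1 bin; values beyond 4 either way sit in the end bins). Each panel has its own y axis. Agt lies in the right tail for PBS against sham (1.01), Ace and Agtr1a in the left tail for labelled against unlabelled cells (-0.68 and -0.85), and in cells against myocardium Agt (-2.56) and Agtr1a (2.18) lie on opposite sides.

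Cells and myocardium differed most. Agtr1a was 4.53-fold higher in the cells on average, a log2 difference of 2.18, and between 1.48 and 2.81 over the pairs of a cell and a myocardial array. Agt was 5.90-fold lower (-2.56, with -3.18 to -2.13 over the pairs). Its processed signals were 35.0 and 40.0 in cells, near the background, against 51.8 to 151 in myocardium. Much of this fold thus comes from the scaling, with 75th percentile signals of 2360 and 2615 in cells against 771.9 to 1276 in myocardium. On the relative scale Ace was lower by 1.47-fold (-0.56; -1.13 to -0.13) and not 2-fold apart on all pairs. Its processed signals were higher in cells, at 895 and 620 against 324 to 547 in myocardium, so the direction depends on the scaling. Those of Agtr1a were 2040 and 1250 in cells against 98.2 to 193, higher before scaling as well. Thus 1 member was 2-fold higher and 1 was 2-fold lower on every pair, where 14.2% and 16.0% of 15615 features were, 30.2% in all, so differences of this kind are common between these materials. A difference as high as that of Agtr1a was found in 5.66% of features and one as low as that of Agt in 6.24%. Without the PBS array the means were 2.27 for Agtr1a, -2.36 for Agt and -0.58 for Ace. The endothelial list, whose cells carry Ace in the heart, had a summed level of 22.5 to 27.5 in myocardium and of 0.829 to 1.19 in cells; the fibroblast list had 62.4 to 82.8 in myocardium and 358 to 366 in cells, with Tcf21 not well above background there. The part of cell types in these values was not tested. The comparison is a description, and no test was run on it, because the cell arrays are 2 different conditions.

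The other genes of the pathway were read from a list of 17 enzymes, receptors and receptor partners, of which all but Lnpep were on the array and 14 were well above background on all myocardial arrays. On PBS against sham, 1 of the 14 was 2-fold higher and 2 were 2-fold lower, where 2.24% and 1.44% of all features were, with a median difference of -0.13 against -0.05 over all features. Cma1, which encodes a mast cell chymase, was 1.19 higher. Mme (neprilysin) and Prcp (prolylcarboxypeptidase), which break angiotensins down, were lower, at -1.27 and -1.24. The PBS array, with the atrial, mesothelial and nerve markers given above, enters these values, and the part of those cells was not tested. Anpep, aminopeptidase N, was 0.48 higher and did not reach that mark.

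Cma1 was higher on every infarcted array than on sham, an order found for 24.9% of features. Its level was -2.91 on sham, -1.72 on PBS and -1.45 and -1.54 on the treated arrays. The treated arrays lay 1.41 ± 0.07 above sham (SD, n = 2; limma adjusted p = 0.298), 1 of 14 measured genes of the list to be 2-fold higher on both, and 0.22 ± 0.07 above PBS (SD, n = 2; limma adjusted p = 0.757). Of all features, 0.585% were 2-fold higher on both treated arrays than on sham, and 0.364% had a difference from sham as high as that of Cma1. The mast cell list had 3 of 5 markers well above background on sham and on PBS and 4 of 5 on the treated arrays, Ms4a2 on none. Its summed level was 0.480 on sham, 0.420 on PBS and 0.749 and 0.650 on the treated arrays, and its part in the Cma1 value was not tested.

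Mme stood at -4.33 on sham, -5.60 on PBS and -4.74 and -5.45 on the treated arrays. It was lower than sham by 0.77 in the treated mean (-0.77 ± 0.51, SD, n = 2; limma adjusted p = 0.607), with treated replicate 1 nearer to sham and treated replicate 3 nearer to PBS. Prcp stood at -4.73, -5.97, -5.43 and -5.46 in that order, a difference from sham of -0.72 ± 0.02 (SD, n = 2; limma adjusted p = 0.436) and from PBS of 0.53 ± 0.02 (SD, n = 2; limma adjusted p = 0.489). Of the 2 spots of each gene only 1 was well above background on PBS and on treated replicate 3, so these readings lie near the background. Against PBS, 0 of the 14 genes were 2-fold apart in either direction, where 1.25% of all features were. The list's median was 0.12 against 0.01. Against sham the list had 1 gene higher and 0 lower, where 0.585% and 0.394% of all features were. Its median there was -0.03 against -0.04.

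**Figure D4:**
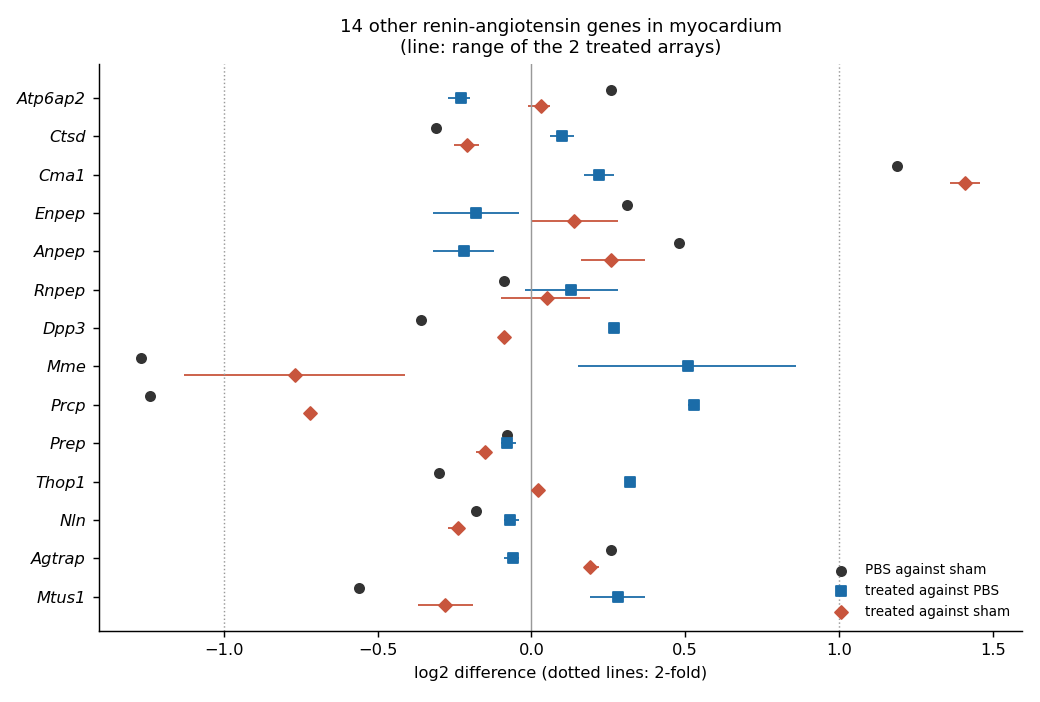
Log2 differences (x axis) of the 14 other pathway genes well above background on all myocardial arrays (y axis) for PBS against sham (black circles), treated against PBS (blue squares) and treated against sham (red diamonds). Markers are the difference or the mean of the 2 treated arrays, horizontal lines run from one treated array to the other, and dotted lines mark 2-fold. Cma1 lies at 1.19 and 1.41 against sham, Mme and Prcp at -1.27 and -1.24 for PBS against sham, and most other genes within 0.5 of 0.

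Most listed peptidases were measured in both materials, at different levels. Of the 13 listed genes measured on all 6 arrays, 6 were 2-fold higher in the cells on every pair and 1 was lower, where 14.2% and 16.0% of all features were, with a median of 1.25 against 0.03 over all features. Mme was higher by 6.44, at 1.42 and 1.40 in cells, and Anpep by 4.97; both are also surface antigens of stromal cells. Dpp3 (2.23), Atp6ap2, a proton pump accessory subunit (1.95), Nln (1.28) and Agtrap, the type 1 receptor partner (1.25), were the other 4. Mtus1, a binding partner of the type 2 receptor, was lower (-2.75), read from 1 spot an array. Its dimmer second probe, also with 1 spot, gave a smaller difference, at -1.87 and -1.59 in cells against -0.54 to -0.20 in myocardium. Cma1 was measured in myocardium and was not well above background in cells, where it was lower by a floored fold of 63.8. A floored fold takes the mean of the bright arrays over that of the dim ones. Each dim reading is raised to at least the faintest mean signal of a probe that counted as well above background. Such a mean can include a spot that failed the scanner's test. Zbtb16 counted on unlabelled cells with a mean of 10.7, although only 1 of its spots, at 4.62 and 24.6, passed. Floored folds are thus not strict lower bounds. The protease gene Ctsg and the receptor gene Mrgprd were not well above background on any array. Between labelled and unlabelled cells, 0 of 13 genes measured on both were 2-fold apart, where 1.03% of all features were. The median was -0.05 against -0.04. The largest differences were those of Anpep (-0.45), Atp6ap2 (0.41), Ctsd (-0.39) and Prcp (-0.32).

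The kinin system shares Ace with this pathway, since Ace also degrades bradykinin. Of its 10 listed genes, 3 were well above background in the myocardium. Klk1, tissue kallikrein, which releases kinins, was 2-fold lower on PBS than on sham (-1.09), 1 of the 3, where 1.44% of all features were. Its processed signals were dim, at 57.2 on sham and 39.0 on PBS. It lay at -3.75 on sham, -4.84 on PBS and -5.47 and -4.74 on the treated arrays, a treated difference from sham of -1.35 ± 0.52 (SD, n = 2; limma adjusted p = 0.49), with 1 treated array short of 2-fold. Bdkrb2, the constitutive bradykinin receptor, differed from sham by -0.64 ± 0.15 (SD, n = 2; limma adjusted p = 0.495). Its processed signals were dim and nearly level, at 30.9 on sham and 30.4 and 29.1 on the treated arrays. Much of this difference thus comes from the scaling. The inducible receptor gene Bdkrb1 was well above background only in cells, at -3.38 without and -2.52 with the tracer, a difference of 0.86. It was higher there than in myocardium by a floored fold of 15.5, which is not a strict lower bound. Klkb1 (plasma kallikrein) and Kng1 (kininogen) were likewise measured in cells only, higher by floored folds of 22.5 and 12.4.

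Aldosterone signalling lies downstream of angiotensin II. Of 9 listed genes of the mineralocorticoid axis, 5 were well above background in myocardium. Of the 5, 0 were 2-fold apart on PBS against sham, treated against PBS or treated against sham. The shares of all features were 3.68%, 1.25% and 0.979% in that order. Hsd11b1, which regenerates active glucocorticoid, stood at 0.92 on sham, 0.21 on PBS and 0.10 and 0.14 on the treated arrays, a treated difference from sham of -0.80 ± 0.02 (SD, n = 2; limma adjusted p = 0.429). Hsd11b2, which inactivates glucocorticoid and so leaves the receptor to aldosterone, was 0.76 ± 0.06 above sham (SD, n = 2; limma adjusted p = 0.433) and turned to -0.20 with normexp background correction. On sham, PBS and treated replicate 1, only 1 of the 2 spots of Hsd11b2 was well above background, so its readings lie near the background. Nr3c2, the mineralocorticoid receptor gene, ranged from -0.83 to -0.41 in the myocardium and was 2-fold lower in cells on the relative scale (-1.35). Its processed signals were 620 and 615 in cells against 449 to 960 in myocardium, so much of this comes from the scaling. The gene's dimmer second probe lay at -6.05 and -6.20 in cells against -5.21 to -4.63, not 2-fold lower on every pair. In cells Hsd11b1 was 3.00 higher and Cyp11a1, the first enzyme of steroid synthesis, was lower (-6.75). Cyp11b1 and Star were measured in cells only, higher there by floored folds of 24.9 and 13.7.

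Downstream of the receptor, 18 of 20 listed signalling genes were well above background in the myocardium. On PBS against sham, 0 were 2-fold higher and 2 were lower (2.24% and 1.44% of all features), with a median of -0.10 against -0.05. These were Zbtb16, a zinc finger protein that binds the type 2 receptor (-1.34), and Nox4, an oxidase (-1.02). The processed signals of Nox4 were 31.9 on sham and 22.9 on PBS, so its readings lie near the background. Rgs2, which damps Gq signalling and is induced by angiotensin II, was 0.90 higher on PBS than on sham, and treated myocardium differed from PBS by -0.72 ± 0.13 (SD, n = 2; limma adjusted p = 0.452). Zbtb16 was the 1 gene of the 18 that was 2-fold apart between treated and PBS, at 1.83 ± 0.30 (SD, n = 2; limma adjusted p = 0.303), a value that 0.047% of features reached. Its levels were -2.60 on sham, -3.94 on PBS and -2.32 and -1.89 on the treated arrays, so PBS, the array with the atrial and mesothelial markers, was the lowest, and their part was not tested. Treated myocardium differed from sham by 0.50 ± 0.30 (SD, n = 2; limma adjusted p = 0.619). Against sham 0 of the 18 were 2-fold apart, where 0.979% of all features were.

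With the tracer, 1 of 16 signalling genes measured on both cell arrays was 2-fold apart, as were 1.03% of all features. Rcan1, a calcineurin inhibitor that angiotensin II induces in other cells, was 1.48 higher in labelled cells, at 2.41 against 0.93. The next largest were Rgs2 (0.70), Nox4 (-0.68) and Plcb1, the Gq-coupled phospholipase (-0.65). Against myocardium, Jak2 (2.40) and Cyba (2.36) were 2-fold higher in cells on every pair, and Plcb1 (-2.82), Rcan1 (-2.35) and Arrb2 (-1.57) were lower. Processed signals in cells and myocardium overlapped for Rcan1 (4480 and 13900 against 13000 to 25800) and Arrb2 (661 and 692 against 579 to 1050). The differences of Rcan1 and Arrb2 thus come in part from the scaling. Rgs4 and Rgs5, regulators of G protein signalling of which the latter marks pericytes, were not well above background in cells. They were lower there by floored folds of 362 and 478. The oxidase gene Nox1 was measured in cells only, higher by a floored fold of 8.62.

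The named genes whose profiles over the 6 arrays lay closest to each member were found among 9738 genes well above background on all arrays, by the root mean square of the log2 differences after centring each gene on its own mean. For Agt they were Chrm3, a muscarinic receptor gene (0.14), Ms4a8 (0.15) and Adcy4, an adenylyl cyclase gene (0.15). For Ace they were the olfactory receptor gene Or5p50 (0.07), the plexin gene Plxna2 (0.10) and the casein gene Csn1s1 (0.10). For Agtr1a they were Col14a1, a collagen gene (0.12), Chrd, which encodes chordin (0.12), and Myh9, a non-muscle myosin gene (0.14). In the profiles of Agt and Agtr1a the step between cells and tissue is the largest, so a likeness over these 6 arrays is in large part a likeness in that step.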

How the data were processed

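Total RNA was labelled with Cy3 and hybridised to 6 arrays of 1 rat design on 1 slide and 1 scan, per the labels and file headers. The authors deposited intensity values for every spot as the scanner software wrote them (Agilent Feature Extraction, version 11.0.1.1, per the submitters' processing notes). A second deposited file is a table of log2 values, and how it was normalized is not stated in these sources. The columns of that table followed log2 processed signal (r of 0.9998 or more), with medians of 8.85 on the myocardial and 9.67 on the cell arrays, so each set was put on a common scale apart from the other.

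Processed signals were put on the log2 scale and expressed relative to the array's 75th percentile over 58717 non-control spots, a signal of 771.9 (sham), 1120 (PBS), 1276 and 1058 (treated 1 and 3), 2360 (unlabelled cells) and 2615 (labelled cells). Outlier-flagged spots were left out, spots of a probe were averaged, and a probe counted as well above background where at least 50% of its spots did. The scanner files used here hold accessions without gene names. Unversioned accessions were matched to RefSeq genes (GRCr8, used for names and promoters), which named 18347 of 30367 probes. Features well above background on all arrays compared were counted when 2-fold apart, on both treated arrays where they entered.

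For the treated comparisons, limma 3.58.1 was run in R 4.3.3 (lmFit, eBayes, Benjamini-Hochberg) on the 4 myocardial arrays together, for the 19230 features that passed the background test on 1 or more of these. The treated pair gives its only residual degree of freedom. The fit was tested on simulated data. Named genes are the 6 members, pathway genes 2-fold apart, up to 4 of each list with the largest differences and the 3 closest profiles of a member. Some genes of the pathway list are not reported here and were left out of its counts. Members, lists and rules were chosen with earlier results of these data known. Alternatives covered background correction (normexp, offset 50, on the median signal), normalization, scaling, the authors' values, the probe of a gene, the filter, the threshold, the variance model and single arrays. Figures were drawn with matplotlib 3.10.9.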

Additional observations from a re-analysis of the deposited data

How the results depend on the processing

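Of 96 alternative counts, 68 stayed within 1.5 times the reported one and 28 did not. The 2-fold mark of Agt on PBS against sham was the least settled: 1 member passed it as reported and with no filter, 1.5-fold or the mean of all probes, and 0 did with normexp, quantile normalization, the authors' values or median scaling. At 1.5-fold, 2 members (Ace and Agtr1a) were apart between labelled and unlabelled cells. The 624 features 2-fold apart on PBS against sham became 237 with normexp, 2249 with no filter and 2230 at 1.5-fold. The 213 for treated against PBS became 88, 804 and 829, and 437 to 501 with a single treated array. The 164 for treated against sham became 72, 798 and 730, and 371 to 406 with a single treated array. The 184 between labelled and unlabelled cells became 69, 1326 and 1156. The 4714 between cells and myocardium became 7507 with no filter and 7277 at 1.5-fold. limma called 0 features as reported; for treated against PBS it called 82 with normexp and 59 when the spread was trended and robust, and for treated against sham 50, 49 and, in the authors' values, 3.

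Of the values of single genes, 11 were counted as turning direction and 592 as the same, and 67 others moved by the SD of the treated pair or more. A turn was counted only where the reported value had a limma p or was 2-fold apart. Other changes of sign, such as that of Ace on PBS against sham (-0.11 to 0.1), are not among the 11. Values with a limma p in both settings were compared by direction and by the call at an adjusted p of 0.05, not by size. The added limma test of PBS against sham uses the same differences and was counted as the same. Against sham with normexp, those that turned direction were Agt (-0.03), Agtr1a (-0.05), Anpep (-0.01) and Hsd11b2 (-0.20). Against PBS with median scaling it was Rcan1 (0.00). With a single treated array, Ace turned against PBS (-0.02 to 0.30) and sham (-0.01 to 0.30), Agtr1a against sham (-0.05 to 0.25), Klk1 against PBS (-0.63 to 0.10) and Rcan1 against both (-0.42 to 0.30 and -0.48 to 0.25). Over all alternatives Agt ran from 0.49 to 1.01 on PBS against sham and from -0.85 to -0.52 on treated against PBS (limma adjusted p 0.357 to 0.634). Against myocardium the cells' Agt ran from -2.64 to -1.90 and Agtr1a from 1.72 to 2.47. The cause of these shifts was not tested. The share of higher features among those 2-fold apart between labelled and unlabelled cells was 43.5%, and 60.5% with quantile normalization, 57.2% in the authors' values and 63.8% with normexp; between cells and myocardium it was 47.1%, and 62.0% with median scaling, which moved the median of all features from 0.03 to 0.32.

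No paired analysis was possible because only the treated group has more than 1 array, so the groups compared share fewer than 2 replicate numbers. The authors' values were not used for cells against myocardium, since the sets were scaled apart, and the comparison without the PBS array and the limma test of PBS against sham were added after the data were seen. Agtr1b, Agtr2 and Mas1 lay under the scanner's background mark, which limits them to an upper bound.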
